A study of Mus musculus with 12 samples.

Results

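The integrated stress response and the genes that Atf4 is known to switch on were followed through the prefrontal cortex of female mice with and without the Cav3.1 calcium channel. The genes were chosen by symbol, with earlier results of these data known. They are Atf4, its partners and regulators, its targets in amino acid metabolism and the aminoacyl-tRNA synthetases. Of 35 listed symbols, 34 are rows of the deposited table of 24411 gene symbols, and all 34 had enough counts to be among the 15199 genes tested. The listed symbol Mars1 is absent from the table, which holds the older symbol Mars instead. Mars is described with the other pathway genes.

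Total RNA from female medial prefrontal cortex was sequenced for 2 genotypes, a knockout (KO) of Cav3.1, encoded by Cacna1g, and wild type (WT), both on a C57BL/6J background and aged 8 to 12 weeks. There were 4 groups of 3 libraries each: stressed KO, unstressed KO, stressed WT and unstressed WT. Stressed mice went through either forced swimming or tail suspension daily on 5 days, and the labels give no treatment for unstressed mice. KO mice came from a bioresource centre and WT mice from a commercial breeder, so genotype and colony cannot be told apart. The labels do not say that the libraries of a group came from separate mice, so a p-value here measures the spread of libraries and may hold no spread between animals. RNA came from whole tissue, in which fewer cells of a type and less RNA per cell cannot be told apart.

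The integrated stress response starts when a kinase phosphorylates the translation factor eIF2 on its alpha subunit. General protein synthesis then slows, while the mRNA of Atf4 is translated more, and Atf4 protein binds with C/EBP family partners to genes for amino acid synthesis, amino acid uptake, tRNA charging and feedback. Atf4 is controlled largely at translation, so its mRNA level does not measure its protein. In the brain the pathway is best known for its part in memory and in the response to protein misfolding.

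Atf4 dimers bind the C/EBP-ATF response element, whose core was searched as TGATGNAA on both strands of RefSeq promoter windows, which run from 250 bases before to 50 after each start on GRCm38.p6. Of the 34 genes, 30 had a window, and 11 of these 30 (36.7%) held the core in at least 1 window, against 1219 of 27025 genes (4.51%). A match is only a stretch of letters and not a shown site of binding. The stretches of 30 bases below are from 5 genes whose levels are described in detail, turned so that the core, in capitals, reads forward. Chac1, Iars and Tars were lower in KO libraries, and Asns and Slc7a11 moved with stress in WT libraries.
Chac1, chr2:119351038-119351067, minus strand: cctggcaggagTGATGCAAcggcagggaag
Iars, chr13:49682126-49682155, minus strand: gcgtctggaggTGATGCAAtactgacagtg
Tars, chr15:11399655-11399684, plus strand: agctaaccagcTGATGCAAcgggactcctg
Asns, chr6:7693214-7693243, minus strand: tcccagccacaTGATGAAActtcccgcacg
Slc7a11 nearer the start, chr3:50443642-50443671, plus strand: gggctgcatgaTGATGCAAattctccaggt
Slc7a11 farther from the start, chr3:50443661-50443690, minus strand: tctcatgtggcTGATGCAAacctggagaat
Positions are those of the core's upstream end, in the direction of the gene, on whichever strand the core reads forward. This end lay 193 bases before the start of Chac1, 15 before that of Tars and 23 before that of Asns. In Slc7a11 the ends lay 47 and 66 bases before the start. In Iars the end was base 8, counting the start as the first. The other holders were Aars, Gars, Nupr1, Pck2, Trib3 and Vldlr. Of the 9 genes with a window that were lower in KO libraries, described below, 3 held the core (33.3%), as did 8 of the other 21 (38.1%).

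Library totals ran from 15469590 to 28022130 estimated counts in stressed KO, 20892789 to 26252377 in unstressed KO, 24269178 to 29830758 in stressed WT and 27020289 to 31082240 in unstressed WT. Cacna1g averaged 60.7 ± 4.58 CPM in stressed KO and 60.5 ± 5.35 in unstressed KO, against 116 ± 10.6 in stressed WT and 137 ± 5.95 in unstressed WT (CPM, read counts scaled to library size; SD, n = 3 each), so each KO library lay below each WT library. The 6 excitatory neuron markers summed to between 4547 and 7360 CPM over the 12 libraries, and the 8 cortical layer markers summed to between 395 and 602 CPM with none at 0. Of these 8, 3 were higher (Fezf2, Tle4 and Nxph3) and 1 lower (Cux2) in unstressed KO against unstressed WT, 1 was higher (Fezf2) and 2 were lower (Cux2 and Syt6) in stressed WT against unstressed WT, and 0 passed in stressed KO against stressed WT (edgeR). Unstressed WT libraries 1 and 2 stood apart: the mean centred log2 CPM of 10 olfactory bulb markers was 3.36 and 3.54 there, against 0.61 in unstressed WT library 3 and -2.21 to 0.41 in the other 9 libraries. The summed level of these markers ranged from 34.2 to 107 CPM in stressed KO, 41.5 to 153 in unstressed KO, 29.9 to 149 in stressed WT and 145.5 to 1138 in unstressed WT, and none of the 10 was at 0. Meningeal fibroblast markers moved the same way, with sums of 41.7 to 95.8, 45.4 to 103, 36.6 to 83.0 and 102 to 264 CPM in the same order of groups. For the 34 genes, nonzero counts of calls and the called values printed that use the unstressed WT group are therefore also given without those 2 libraries. That leaves 1 library in the group, assumed to vary like the others. Values of single markers and of pathway genes outside the 34 are given from all 12 libraries only. Stressed KO library 1 had the highest striatal marker sum, 738 CPM, against 201 to 270 CPM in the other 11 libraries, and blood markers summed to 92.8 to 127 CPM in stressed KO against 63.5 to 107 in stressed WT.

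Across both stress levels, the Atf4 group leaned lower in KO than in WT cortex. Of the 34 genes, 10 were lower and 0 were higher in KO libraries when the genotype differences with and without stress were averaged (edgeR quasi-likelihood test, Benjamini-Hochberg adjusted p under 0.05). Among all genes tested, 6.33% passed, 3.22% as lower and 3.11% as higher. The log2 fold change was below 0 for 28 of the 34, with a median of -0.12, whereas it was below 0 for 49.7% of all genes. The 10 were Shmt2, Sesn2, Atf4, Aldh18a1, Chac1, Slc7a5, Mthfd2, Atf5, Iars and Tars. The number was 1 when unstressed WT libraries 1 and 2 were left out, with 30 of 34 fold changes still below 0, and 1 when the olfactory bulb score was a covariate. It was 6 without unstressed WT library 2, without stressed WT library 1 or without unstressed KO library 2. Without unstressed WT libraries 1 and 2 the log2 fold changes that no longer passed were -0.35 for Atf4, -0.46 for Sesn2, -0.57 for Chac1, -0.34 for Aldh18a1, -0.41 for Mthfd2, -0.44 for Slc7a5, -0.54 for Atf5, -0.31 for Iars and -0.17 for Tars, all still below 0.

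Atf4, at chromosome 15, 80255184 to 80257541 on the plus strand of GRCm38, encodes the transcription factor at the centre of the pathway. Libraries read 89.2, 97.2 and 107.6 CPM in stressed KO and 94.7, 90.6 and 96.1 CPM in unstressed KO, against 132, 142 and 139 CPM in stressed WT and 118, 113 and 108.4 CPM in unstressed WT. All 6 KO libraries lay below all 6 WT libraries, by a narrow margin between the highest KO and the lowest WT library. The averaged log2 fold change was -0.38 ± 0.05 (SE; edgeR adjusted p = 0.00408). It passed in each of the 12 fits that left out 1 library, and was -0.35 ± 0.07 without unstressed WT libraries 1 and 2 (edgeR adjusted p = 0.0504). Over its 18 alternatives the adjusted p ran from 4.4e-09 with DESeq2 to 0.0719 with olfactory bulb score as covariate.

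Besides Atf4, the 6 KO and 6 WT libraries did not overlap for 5 of the genes, Aldh18a1, Atf5, Chac1, Sesn2 and Shmt2, and in these 6 genes the KO libraries were the lower ones. None of the 34 separated with KO higher. Of all genes, 1.10% separated with KO lower and 1.15% with KO higher.

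Sesn2 encodes sestrin 2, a leucine sensor that restrains mTORC1. Its level was 9.78, 9.50 and 10.2 CPM in stressed KO and 8.54, 8.03 and 9.66 CPM in unstressed KO, against 13.2, 11.6 and 12.2 CPM in stressed WT and 13.9, 14.5 and 13.2 CPM in unstressed WT. The highest KO library was thus below the lowest WT library, with an averaged log2 fold change of -0.50 ± 0.07 (edgeR adjusted p = 0.00396). Chac1, an enzyme that breaks down glutathione, was read at 7.00, 7.47 and 7.56 CPM in stressed KO and 6.60, 5.93 and 8.17 CPM in unstressed KO, against 10.5, 11.9 and 12.1 CPM in stressed WT and 8.40, 8.95 and 9.67 CPM in unstressed WT. KO libraries were again the lower ones, the nearest pair being unstressed KO library 3 and unstressed WT library 1, and the averaged log2 fold change was -0.52 ± 0.09 (edgeR adjusted p = 0.0120).

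Shmt2 makes glycine and one-carbon units from serine in mitochondria. Its level was 16.0, 14.9 and 15.4 CPM in stressed KO and 15.1, 13.5 and 14.5 CPM in unstressed KO, against 19.3, 19.2 and 20.1 CPM in stressed WT and 24.1, 23.0 and 19.4 CPM in unstressed WT. KO libraries were low at both stress levels, with an averaged log2 fold change of -0.48 ± 0.06 (edgeR adjusted p = 0.00355). Of the 34 genes, it was the one that still passed without unstressed WT libraries 1 and 2, at -0.39 ± 0.07 (edgeR adjusted p = 0.0433; 2.1e-07 to 0.0719 over its alternatives). Shmt2 overlaps Ndufa4l2 on the opposite strand, and whether the counting used strand is not given in the sources used here, so reads of the 2 genes cannot be told apart with certainty. Aldh18a1, which makes the proline precursor from glutamate, was read at 23.8, 22.9 and 26.3 CPM in stressed KO and 21.2, 22.6 and 23.8 CPM in unstressed KO, against 30.6, 30.4 and 28.3 CPM in stressed WT and 28.3, 28.7 and 29.3 CPM in unstressed WT. Its libraries were tight within each genotype and apart between them, with an averaged log2 fold change of -0.32 ± 0.05 (edgeR adjusted p = 0.0101).

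Mthfd2, the next mitochondrial one-carbon enzyme, was read at 6.30, 5.16 and 6.92 CPM in stressed KO and 4.92, 4.47 and 4.73 CPM in unstressed KO, against 8.65, 8.91 and 7.98 CPM in stressed WT and 6.64, 6.22 and 5.99 CPM in unstressed WT. Within each stress level the KO libraries lay below the WT libraries, but stressed KO and unstressed WT overlapped. The averaged log2 fold change was -0.45 ± 0.09 (edgeR adjusted p = 0.0200), and it passed in 9 of 12 fits that left out 1 library.

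Slc7a5, the large neutral amino acid transporter, was read at 61.3, 72.8 and 65.4 CPM in stressed KO and 55.6, 54.0 and 58.6 CPM in unstressed KO, against 75.9, 75.7 and 94.7 CPM in stressed WT and 69.4, 84.7 and 84.0 CPM in unstressed WT. Stressed KO library 2 lay above unstressed WT library 1, and the KO libraries were otherwise below the WT libraries. The averaged log2 fold change was -0.40 ± 0.08 (edgeR adjusted p = 0.0183), and it passed in 11 of 12 fits that left out 1 library.

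Atf5, a related transcription factor whose translation is controlled like that of Atf4, had the largest averaged fold change of the 34 genes, with uneven unstressed WT libraries. Levels were 16.2, 15.7 and 18.9 CPM in stressed KO and 13.6, 18.1 and 12.3 CPM in unstressed KO, against 20.7, 19.2 and 25.1 CPM in stressed WT and 29.2, 57.8 and 24.2 CPM in unstressed WT. The highest value belongs to unstressed WT library 2, which also carried the highest olfactory bulb marker score. The averaged log2 fold change was -0.85 ± 0.19 (edgeR adjusted p = 0.0309), passed in 4 of 12 fits that left out 1 library, and was -0.54 without unstressed WT libraries 1 and 2 (edgeR adjusted p = 0.0761; 6.13e-04 to 0.249 over its alternatives). The part of other tissue in this value was not tested. Atf5 also overlaps Nup62 and Il4i1 on the opposite strand.

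**Figure D1:**
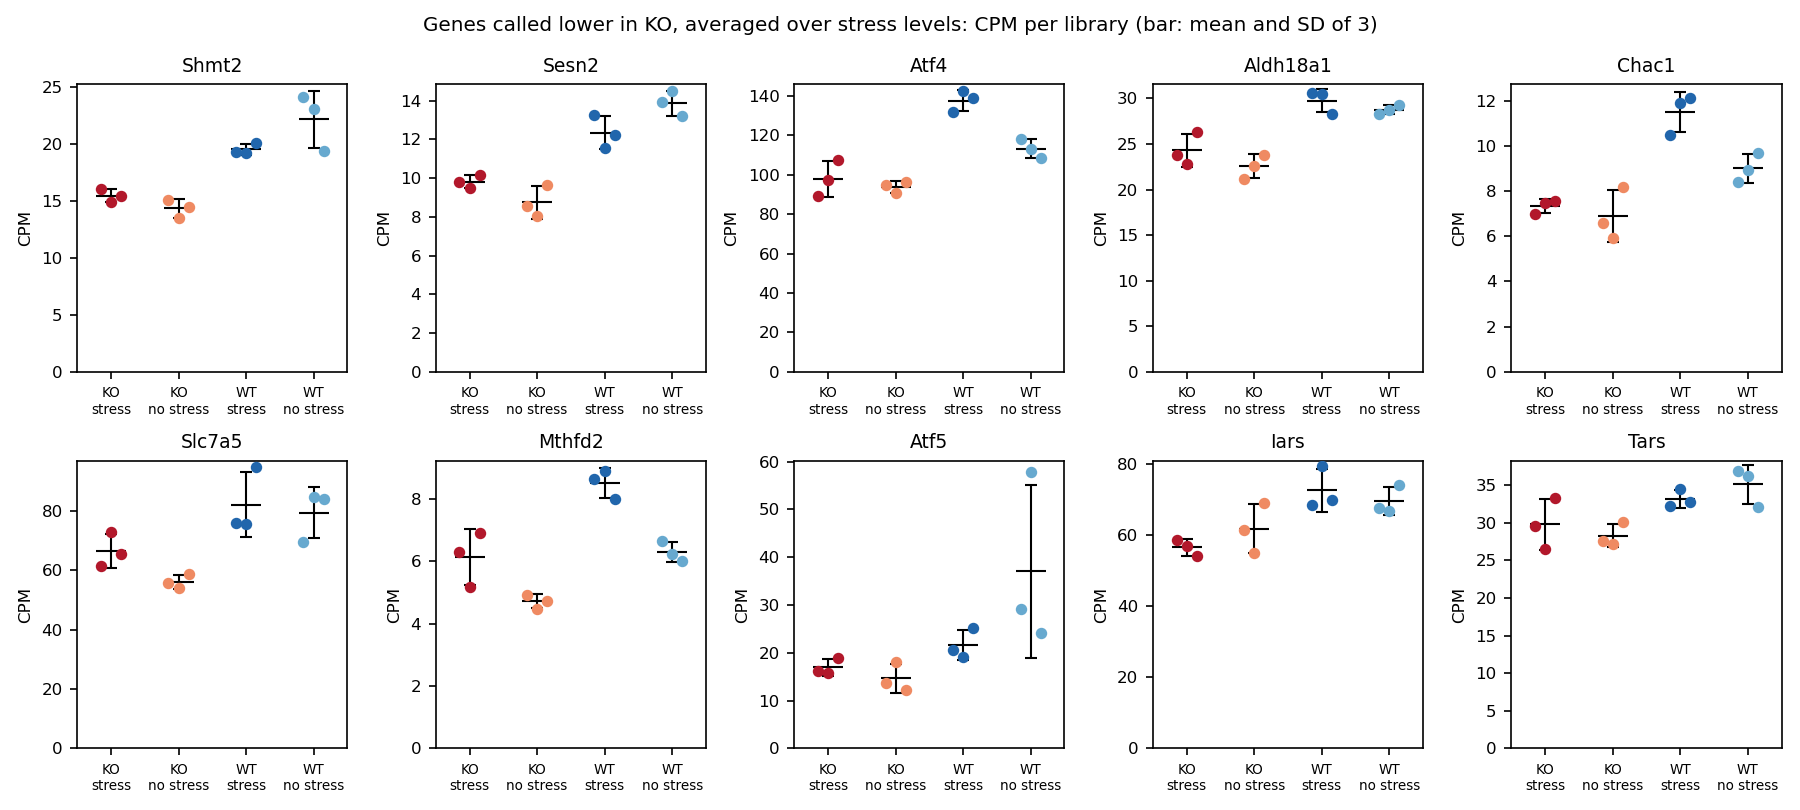
Normalised read counts (CPM) of the genes with lower levels in KO libraries, 1 panel a gene, with each library as a point and the group mean and SD beside it, for stressed KO, unstressed KO, stressed WT and unstressed WT. Atf4 points in KO libraries reach at most 107.6 CPM and those in WT libraries start at 108.4 CPM, and Atf5 has 1 unstressed WT library at 57.8 CPM.

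By role, the 10 genes came from 5 steps of the pathway. The 3 regulators of eIF2 phosphorylation gave no call in the average (edgeR; 0 with DESeq2; 0 at an unadjusted p under 0.05). Eif2ak3 (PERK), which senses misfolded protein in the endoplasmic reticulum, averaged 32.5 ± 2.92 CPM in stressed KO and 33.7 ± 3.14 CPM in unstressed KO, against 32.9 ± 2.62 CPM in stressed WT and 33.8 ± 1.43 CPM in unstressed WT. Eif2ak4 (GCN2), which senses uncharged tRNA, averaged 21.6 ± 1.95 and 23.0 ± 0.248 CPM in those KO groups, against 22.4 ± 1.54 and 25.9 ± 1.25 CPM in those WT groups. The averaged log2 differences of these kinases were -0.01 ± 0.07 and -0.11 ± 0.06. Ppp1r15a (GADD34), the inducible subunit that directs the phosphatase to eIF2, averaged 14.2 ± 1.51 and 11.4 ± 0.216 CPM in stressed and unstressed KO, against 13.6 ± 0.716 and 13.8 ± 1.40 CPM in stressed and unstressed WT.

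Among 5 transcription factors, Atf4 and Atf5 were lower and none was higher. Ddit3 (CHOP), a factor linked to cell death under prolonged stress, went the other way without passing. It was read at 16.2, 15.3 and 18.8 CPM in stressed KO and 15.3, 18.0 and 14.1 CPM in unstressed KO, against 13.3, 14.8 and 14.2 CPM in stressed WT and 18.2, 13.7 and 13.0 CPM in unstressed WT. Stressed KO libraries all lay above stressed WT libraries, while the unstressed groups overlapped, and the averaged log2 fold change was 0.16 ± 0.10 (edgeR adjusted p = 0.296). Ddit3 overlaps Mars on the opposite strand. Cebpb, a binding partner of Atf4, averaged 7.32 ± 0.454 and 6.79 ± 0.448 CPM in stressed and unstressed KO, against 7.48 ± 1.28 and 6.08 ± 0.951 CPM in stressed and unstressed WT. Nupr1, a stress-induced chromatin protein, ranged from 1.98 to 7.29 CPM over the 12 libraries, and its averaged log2 difference was -0.34 ± 0.21.

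Of 5 feedback genes and effectors, Sesn2 and Chac1 were lower, and the averaged log2 fold change was below 0 for all 5. Ddit4, which restrains mTORC1, averaged 28.5 ± 3.56 and 28.5 ± 4.54 CPM in stressed and unstressed KO, against 34.3 ± 2.89 and 34.3 ± 7.42 CPM in stressed and unstressed WT. Its averaged log2 difference was -0.27 ± 0.11 (edgeR adjusted p = 0.155). Vldlr, a lipoprotein and reelin receptor, gave -0.17 ± 0.07 (edgeR adjusted p = 0.165). Trib3, a pseudokinase that holds Atf4 in check, lay between 0.241 and 0.940 CPM in the 12 libraries, too low to compare, with a standard error of 0.35 on the log2 scale.

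Of 8 genes for amino acid synthesis and one-carbon metabolism, Shmt2, Mthfd2 and Aldh18a1 were lower in KO libraries and none was higher. Pck2, the mitochondrial enzyme that makes phosphoenolpyruvate, differed by -0.05 ± 0.06. The cytosolic serine synthesis enzymes and Asns are described below. Of 4 amino acid transporters, Slc7a5 was lower. Its heavy chain Slc3a2 gave -0.12 ± 0.05 (edgeR adjusted p = 0.139), and the cationic amino acid transporter Slc7a3 gave -0.03 ± 0.20.

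Of 9 aminoacyl-tRNA synthetases, Iars and Tars were lower in KO libraries, none was higher, and 8 of 9 averaged fold changes were below 0. Iars, which charges tRNA with isoleucine, was read at 58.6, 56.9 and 54.1 CPM in stressed KO and 61.5, 55.0 and 69.0 CPM in unstressed KO, against 68.4, 79.6 and 69.9 CPM in stressed WT and 67.7, 66.7 and 74.0 CPM in unstressed WT. The groups were apart with stress and overlapped without it, with an averaged log2 fold change of -0.26 ± 0.06 (edgeR adjusted p = 0.0375). Tars, for threonine, was read at 29.6, 26.5 and 33.2 CPM in stressed KO and 27.6, 27.1 and 30.0 CPM in unstressed KO, against 32.3, 34.5 and 32.7 CPM in stressed WT and 36.9, 36.3 and 32.2 CPM in unstressed WT. Here the groups were apart without stress and overlapped with it, and the averaged log2 fold change was -0.23 ± 0.06 (edgeR adjusted p = 0.0492). These 2 calls were the least stable of the 10, passing in 2 and 1 of the 12 fits that left out 1 library, and Tars missed the threshold with DESeq2's size factors (edgeR adjusted p = 0.0505; 0.0129 to 0.310 over its alternatives). The other 7 synthetases lay between -0.18 for Aars (alanine) and 0.06 for Lars (leucine).

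**Figure D2:**
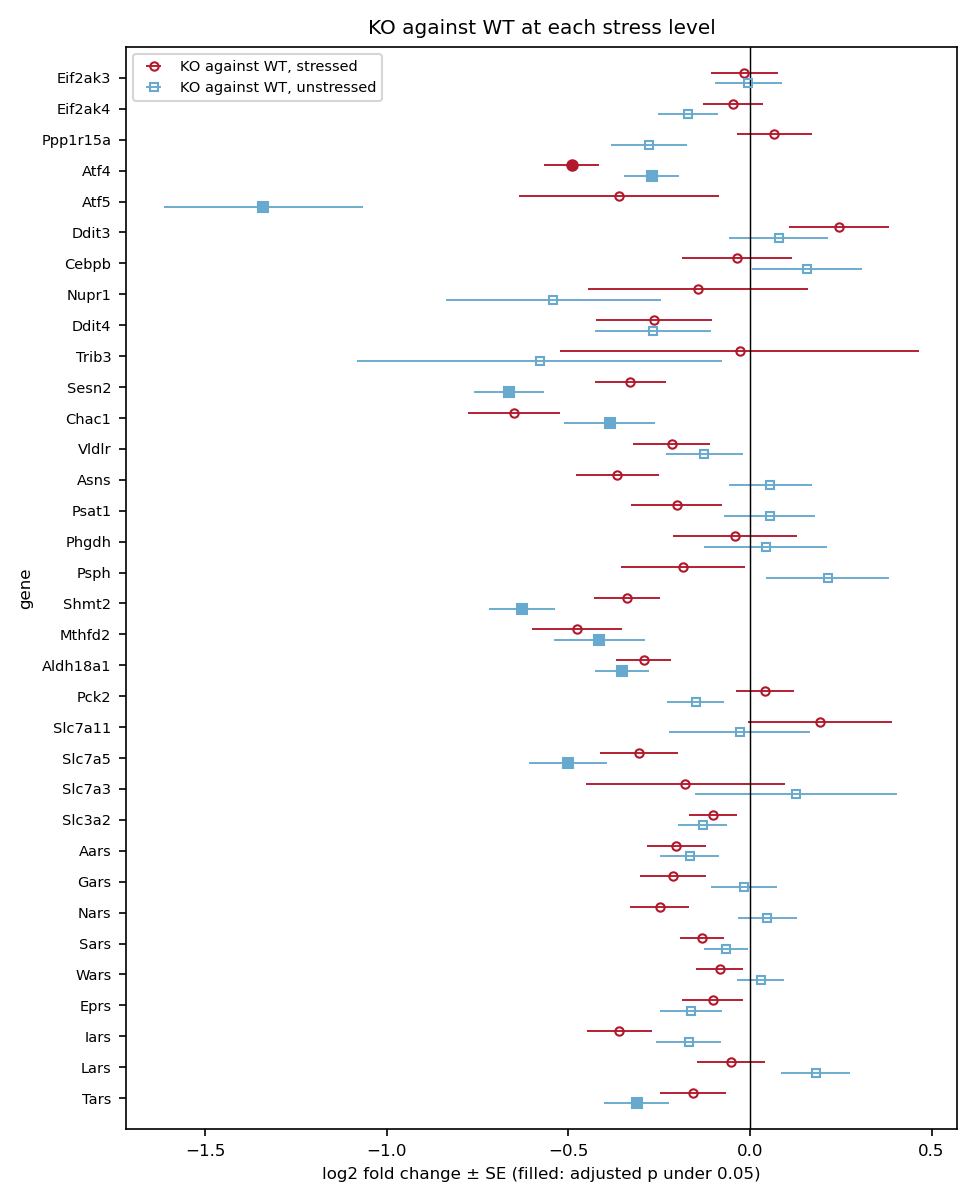
Log2 fold changes of KO over WT with their standard errors for the 34 genes, grouped by role, with stressed and unstressed mice shown apart. With stress 30 of the 34 points lie below 0 and without stress 24 do.

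The genotype comparisons within each stress level share no library, so their values can be set side by side. In stressed mice, 30 of the 34 genes had a lower fitted level in KO libraries, with a median log2 fold change of -0.18, while 50.7% of all genes did. Only Atf4 passed as lower, 0 passed as higher and 12 reached an unadjusted p under 0.05. Of all genes, 0.250% passed in this comparison, 0.164% as lower and 0.0855% as higher. For Atf4 the log2 fold change was -0.49 ± 0.08 (edgeR adjusted p = 0.0179). Without unstressed WT libraries 1 and 2 it was also -0.49, but it could hardly move, since this comparison uses neither. The call was lost without stressed KO library 1 or 2, stressed WT library 2 or 3, or unstressed WT library 2. A fit of the 2 stressed groups alone also lost it (edgeR adjusted p = 0.0509). Over its alternatives the adjusted p ran from 4.1e-07 to 0.0977. With DESeq2, Atf4, Chac1, Iars and Aldh18a1 passed as lower, and 1.97% of all genes passed in either direction.

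Stressed KO and stressed WT libraries did not overlap for 17 of the 34 genes, 16 with KO lower and 1, Ddit3, with KO higher. Of all genes, 22.1% did not overlap, 11.3% with KO lower and 10.8% with KO higher. All 9 synthetases had log2 fold changes below 0 in this comparison, from -0.36 for Iars to -0.05 for Lars, with a median of -0.16 and none past the threshold (edgeR; 1, Iars, with DESeq2). All 5 effectors were also below 0, with a median of -0.27, counting Trib3, which was too low to compare. Chac1 was the largest of these at -0.65 ± 0.13 (edgeR adjusted p = 0.0678; 0.00178 with DESeq2 to 0.247 over its alternatives).

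In unstressed mice, 9 genes were lower in KO than in WT libraries and 0 were higher. They were Shmt2, Sesn2, Atf5, Aldh18a1, Slc7a5, Atf4, Tars, Mthfd2 and Chac1, with 24 of 34 log2 fold changes below 0, against 49.4% of all genes, and a median of -0.16. Of all genes, 23.2% passed, 12.1% as lower and 11.2% as higher, so the share that passed here (26.5%) was near that of all genes and the direction was not. The largest were Atf5 at -1.34 ± 0.27 (edgeR adjusted p = 0.0116), Sesn2 at -0.66 ± 0.10 and Shmt2 at -0.63 ± 0.09 (edgeR adjusted p = 0.00563 for both). For Atf4 the value was -0.27 ± 0.07 (edgeR adjusted p = 0.0261). Without unstressed WT libraries 1 and 2 these values were -0.73 ± 0.19 for Atf5, -0.59 ± 0.14 for Sesn2, -0.43 ± 0.11 for Shmt2 and -0.21 ± 0.11 for Atf4, and none passed (edgeR adjusted p = 0.205, 0.200, 0.202 and 0.392, within ranges over their alternatives that reach 0.328, 0.224, 0.224 and 0.473). The libraries did not overlap for 14 of the 34, 13 with KO lower and 1, Lars, with KO higher. Of all genes, 36.5% did not overlap, 18.0% with KO lower.

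This comparison rests on the unstressed WT libraries with olfactory bulb and meningeal markers: all 10 olfactory bulb markers and 5 of 8 meningeal markers were lower in unstressed KO than in unstressed WT. Without unstressed WT libraries 1 and 2, 0 of the 34 genes passed, and the same held with olfactory bulb score as covariate or with the 2 unstressed groups alone in the fit. Leaving out 1 library gave 5 without unstressed WT library 1 (10.1% of all genes) and 3 without unstressed WT library 2 (1.53%). It gave 5 without unstressed KO library 1 (15.7%) or 2 (6.4%). Atf5, Sesn2 and Shmt2 passed in all 12 such fits. Of the 34 genes, 21 had a log2 fold change below 0 both with and without stress, 1, Ddit3, was above 0 in both, and 12 changed sign. Of all genes, 24.3% were below 0 in both and 24.2% above.

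**Figure D3:**
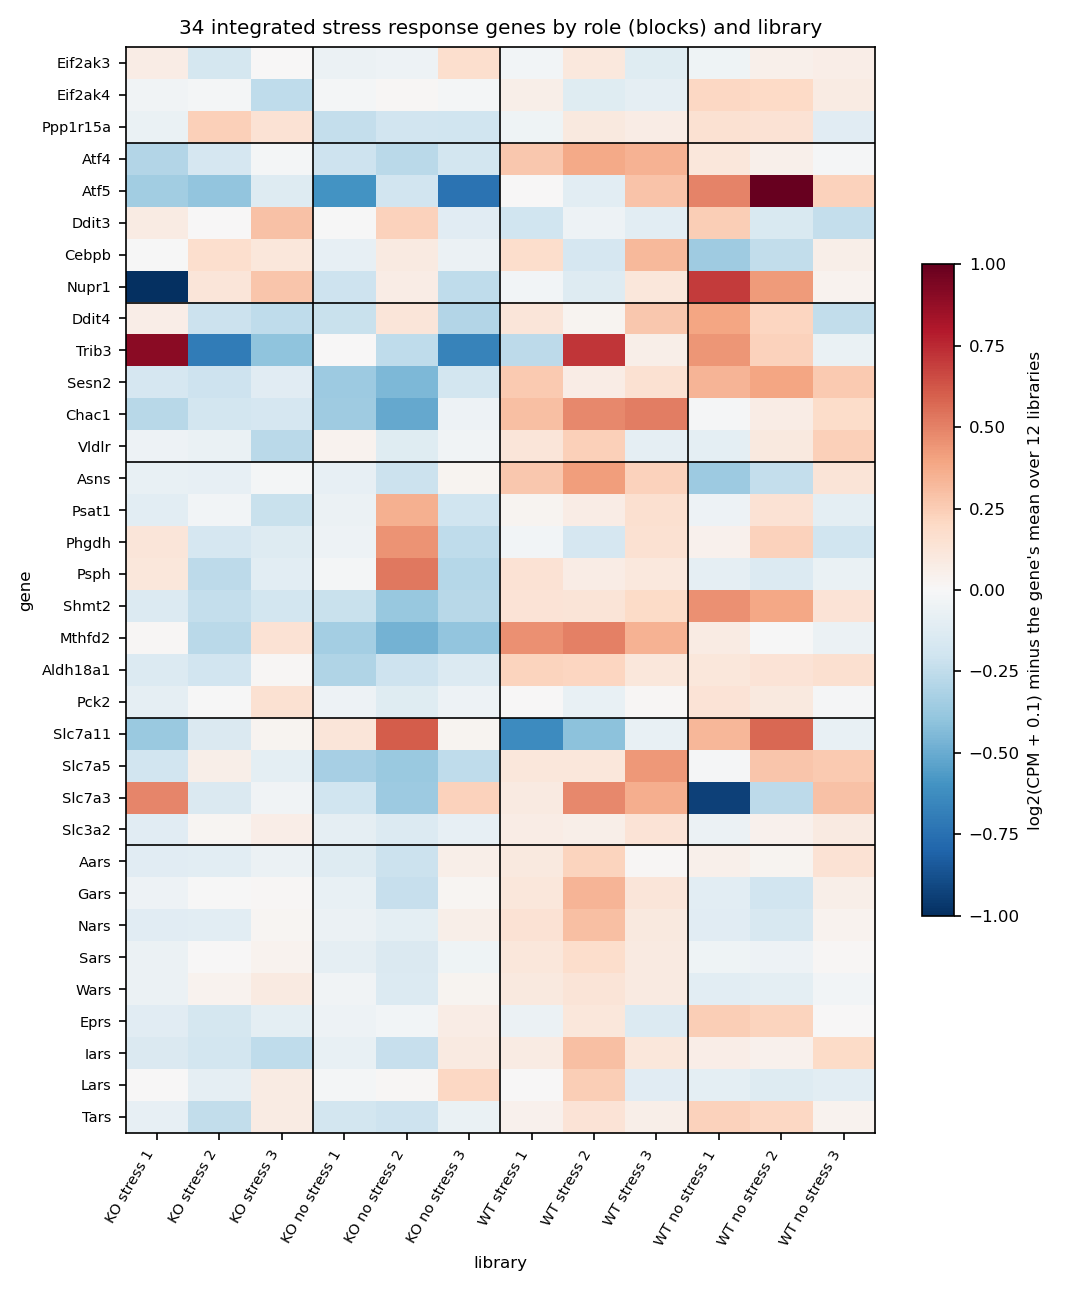
Heat map of log2(CPM + 0.1) minus the gene's mean over the 12 libraries for the 34 genes, with libraries in columns, stressed KO, unstressed KO, stressed WT and unstressed WT in that order, and colours limited to 1 in either direction. Atf4, Sesn2, Chac1, Shmt2 and Aldh18a1 are bluer (lower) in the KO columns than in the WT columns, Psat1, Phgdh and Psph are darkest red in unstressed KO library 2, and Atf5 is darkest red in unstressed WT library 2.

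In WT mice, the 34 genes passed for stress no more often than all genes did, and their count depended on the unstressed WT libraries, as given below. Of the 34 genes, 4 were higher in stressed WT (Asns, Atf4, Mthfd2 and Nars) and 1 was lower (Slc7a11). Of all genes, 21.9% passed, 9.71% as higher and 12.1% as lower, so the share of the 34 that passed (14.7%) was not above that of all genes. The median log2 fold change of the 34 was 0.04. Libraries did not overlap for 11 of the 34, 9 of them with stressed WT higher and 2 lower, against 36.6% of all genes, 19.4% with stressed WT higher.

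Asns makes asparagine and is the best studied Atf4 target. Its level was 131, 146 and 128 CPM in stressed WT, against 84.5, 92.3 and 119 CPM in unstressed WT. All stressed libraries were higher than all unstressed libraries, and unstressed WT library 3 was the nearest to them. The log2 fold change was 0.45 ± 0.11 (edgeR adjusted p = 0.0222). It was 0.18 ± 0.12 without unstressed WT libraries 1 and 2 and no longer passed (edgeR adjusted p = 0.544; 4.96e-04 to 0.544 over its alternatives). In KO mice Asns was read at 104, 103 and 107 CPM in stressed KO, against 103, 94.1 and 111 CPM in unstressed KO. Those KO groups overlapped, with a log2 fold change of 0.03 ± 0.11 (edgeR adjusted p = 0.966).

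For Atf4, at the library values given above, stressed WT lay above unstressed WT with a log2 fold change of 0.28 ± 0.07 (edgeR adjusted p = 0.0247), and stressed KO overlapped unstressed KO with a log2 fold change of 0.06 ± 0.08 (edgeR adjusted p = 0.840). For Mthfd2 stressed libraries were above unstressed libraries in both genotypes, with 0.44 ± 0.12 in WT (edgeR adjusted p = 0.0290) and 0.38 ± 0.13 in KO (edgeR adjusted p = 0.470). Nars, which charges tRNA with asparagine, was read at 269, 299 and 259.7 CPM in stressed WT, against 224, 217 and 249 CPM in unstressed WT. Stressed WT libraries were all higher, by 0.26 ± 0.08 on the log2 scale (edgeR adjusted p = 0.0418). Its level was 225, 226 and 246 CPM in stressed KO, against 233, 227 and 253 CPM in unstressed KO, which overlapped. Without unstressed WT libraries 1 and 2 the stress differences in WT were 0.34 ± 0.11 for Atf4, 0.50 ± 0.19 for Mthfd2 and 0.14 ± 0.11 for Nars, none of which passed (edgeR adjusted p = 0.337, 0.351 and 0.618, against the lowest of 0.00403, 0.0131 and 0.0130 over their alternatives).

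The synthetases as a group leaned higher in stressed WT, with 7 of 9 log2 fold changes above 0 and a median of 0.15. Of all genes, 49.7% had a log2 fold change below 0. Nars alone passed, and its log2 fold change was 0.14 without unstressed WT libraries 1 and 2. Gars, for glycine, averaged 163 ± 15.2 CPM in stressed WT and 135 ± 12.3 CPM in unstressed WT, Wars, for tryptophan, 115 ± 1.62 and 102 ± 3.01 CPM, and Sars, for serine, 218 ± 6.74 and 196 ± 4.87 CPM. These 3 did not overlap between groups and had edgeR adjusted p-values of 0.0522, 0.0604 and 0.0892. Among all genes, 19.4% were apart with stressed WT higher. Eprs, for glutamate and proline, had a log2 fold change of -0.19 ± 0.08 (edgeR adjusted p = 0.125).

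Slc7a11, the cystine-glutamate exchanger, was read at 32.7, 38.0 and 47.9 CPM in stressed WT, against 63.4, 75.2 and 48.0 CPM in unstressed WT. The highest stressed library and the lowest unstressed library were nearly level, and the log2 fold change was -0.65 ± 0.20 (edgeR adjusted p = 0.0371). It was -0.28 ± 0.23 without unstressed WT libraries 1 and 2 and no longer passed (edgeR adjusted p = 0.640; 0.00486 to 0.640 over its alternatives). Of 8 astrocyte markers, Aqp4 and Gfap were also lower in stressed WT, at -0.80 and -1.30. The other astrocyte markers did not pass and went in both directions, from -0.43 for Gja1 to 0.23 for Slc1a2. The part of astrocyte markers in the Slc7a11 value was not tested. In KO mice it was read at 38.9, 45.6 and 51.5 CPM in stressed KO, against 55.0, 76.6 and 51.4 CPM in unstressed KO, which overlapped slightly, with a log2 fold change of -0.43 ± 0.20 (edgeR adjusted p = 0.543).

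The counts for stress in WT depended on the unstressed WT libraries. All 10 olfactory bulb markers, 7 of 8 meningeal markers, both choroid plexus markers tested (Kl and Clic6), 2 of 8 astrocyte markers and 1 of 6 endothelial markers were lower in stressed WT. Higher were 6 of 8 oligodendrocyte markers and 1 of 6 excitatory neuron markers, and of 6 interneuron markers 2 were higher and 3 lower. The part of these markers in the gene values was not tested. The number of the 34 that passed was 0 without unstressed WT library 1, unstressed WT library 2 or both, 0 without stressed WT library 2, 0 with olfactory bulb score as covariate and 0 with the WT groups alone in the fit. It was 2 without stressed WT library 1, where 13% of all genes passed. It was 3 without stressed WT library 3 (10.8% of all genes) or stressed KO library 2 (17.4%). It was 8 without unstressed KO library 2 (21.8%), and 14 without unstressed WT library 3 (36.6%). DESeq2 called 10 of the 34, and 26.5% of all genes.

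**Figure D4:**
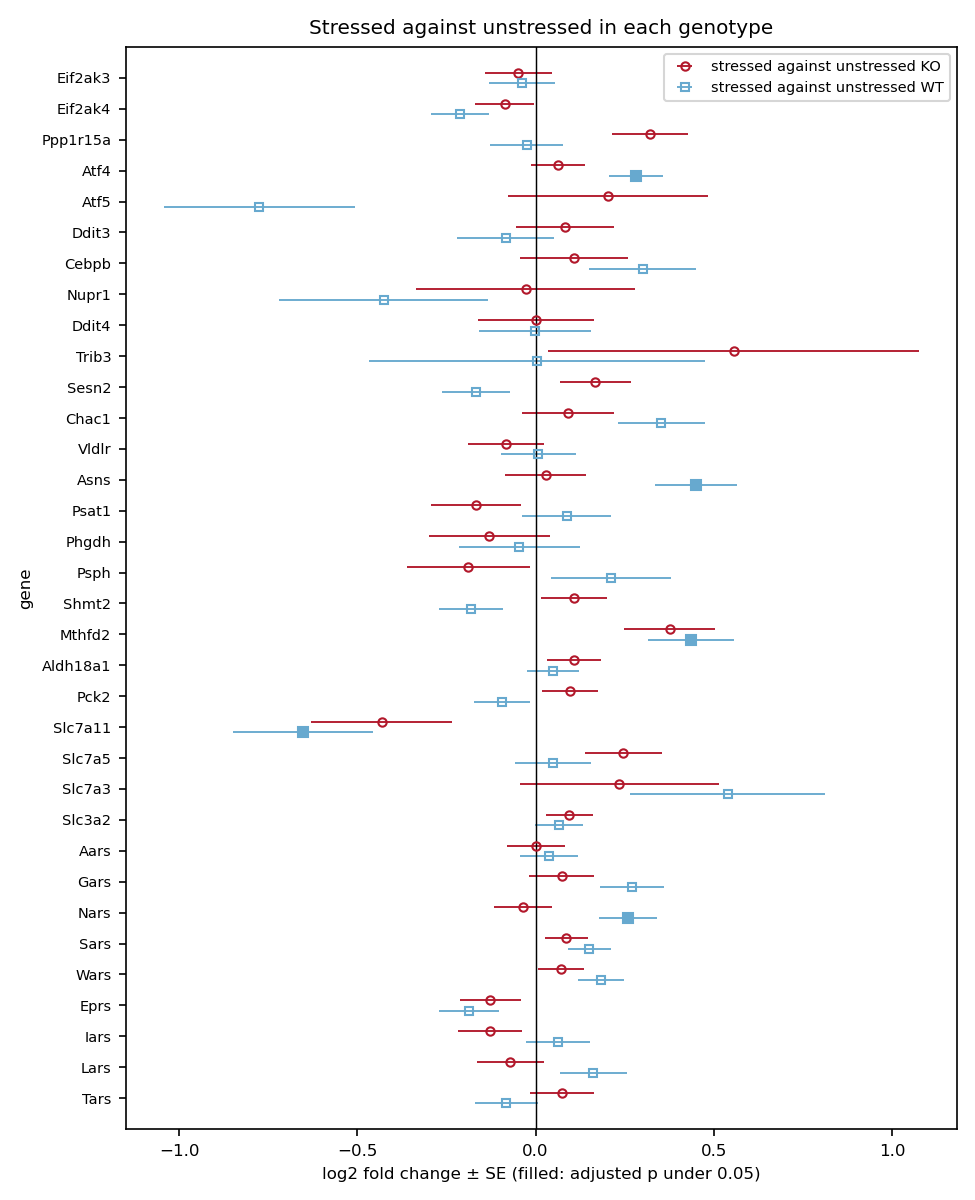
Log2 fold changes of stressed over unstressed libraries with their standard errors for the 34 genes, grouped by role, with KO and WT mice shown apart. Asns, Atf4, Mthfd2 and Nars lie above 0 and Slc7a11 below 0 past the threshold in WT, and no gene passed in KO.

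In KO mice, 0 of the 34 genes passed for stress (edgeR; 0 with DESeq2), and 4 reached an unadjusted p under 0.05. Of all genes, 0.0197% passed, 0.00658% as higher and 0.0132% as lower, so few genes of any kind did. The 4 were Ppp1r15a, Mthfd2, Slc7a5 and Slc7a11. Ppp1r15a was read at 12.6, 15.6 and 14.5 CPM in stressed KO, against 11.1, 11.5 and 11.5 CPM in unstressed KO. Stressed libraries were all higher, by 0.32 ± 0.11 on the log2 scale (edgeR adjusted p = 0.470). For Slc7a5, at the values given above, the groups were also apart, by 0.25 ± 0.11 (edgeR adjusted p = 0.533). The libraries did not overlap for 4 of the 34 genes, Ppp1r15a, Mthfd2 and Slc7a5 with stressed KO higher and Eprs with stressed KO lower, against 16.9% of all genes, 8.45% with stressed KO higher and 8.45% lower.

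The stress effects in the genotypes share no library. They had the same sign for 21 of the 34 genes, 14 above 0 in both and 7 below, and opposite signs for 13; of all genes, 22.8% were above 0 in both and 23.4% below. The difference between the stress effects passed for 0 of the 34 (edgeR; 0 with DESeq2), with 6 at an unadjusted p under 0.05, and for 0 of all genes tested (edgeR), of which 4330 had an unadjusted p under 0.05 and 1885 passed with DESeq2. Asns gave -0.42 ± 0.16 for the effect in KO minus that in WT (edgeR adjusted p = 0.118), Nars -0.30 ± 0.12 (edgeR adjusted p = 0.123), and Atf5 0.98 ± 0.39 (edgeR adjusted p = 0.128). For Atf4 the value was -0.22 ± 0.11 (edgeR adjusted p = 0.192). So a stress effect that passed in WT and not in KO was not shown to differ between them. Leaving out unstressed WT library 3 gave 5 of the 34 that passed, in a setting where 25% of all genes did.

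Averaged over the genotypes, 0 of the 34 genes passed for stress (edgeR), 10 had an unadjusted p under 0.05, and 4 passed with DESeq2. Of all genes, 0.0395% passed with edgeR and 7.9% with DESeq2, and 3526 of 15199 had an edgeR unadjusted p of at most 0.0476. The log2 fold change was below 0 for 14 of the 34 and for 50.6% of all genes. Mthfd2 came nearest at 0.41 ± 0.09 (edgeR adjusted p = 0.0646), and Slc7a11 gave -0.54 ± 0.14 (edgeR adjusted p = 0.0766). Without unstressed WT library 3 the number was 6, and 19.5% of all genes passed. No gene of the 34 had all 6 stressed libraries apart from all 6 unstressed libraries, against 0.553% of all genes with stressed higher and 0.296% with stressed lower.

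The enzymes that make serine, a step carried out largely by astrocytes in the brain, varied most within unstressed KO. Psat1 was read at 86.3, 91.1 and 79.6 CPM in stressed KO and 89.3, 119 and 80.6 CPM in unstressed KO, against 94.6, 97.7 and 103 CPM in stressed WT and 89.4, 102 and 86.5 CPM in unstressed WT. Unstressed KO library 2 held the highest of the 12 values, and the groups overlapped apart from stressed KO and stressed WT. Phgdh, which catalyses the first step, was read at 49.8, 40.6 and 41.9 CPM in stressed KO and 44.2, 62.6 and 38.3 CPM in unstressed KO, against 45.0, 40.7 and 50.7 CPM in stressed WT and 47.2, 53.7 and 39.9 CPM in unstressed WT. Psph, which catalyses the last, averaged 11.6 ± 1.53 and 13.2 ± 3.94 CPM in stressed and unstressed KO, against 13.2 ± 0.312 and 11.4 ± 0.299 CPM in stressed and unstressed WT. Psat1, Phgdh, Psph and Slc7a11 all had their highest value in unstressed KO library 2, at 119, 62.6, 17.6 and 76.6 CPM. The same library had the highest astrocyte score, 0.53 in mean centred log2 CPM, and the highest summed astrocyte level, 5643 CPM. The astrocyte sums ranged from 3169 to 3542 CPM in stressed KO, 3532 to 5643 in unstressed KO, 3493 to 4094 in stressed WT and 3670 to 3881 in unstressed WT, and none of the 8 markers was at 0. In that library 11 of the 34 genes were also at their lowest of the 12 libraries. None of the 3 serine synthesis enzymes passed in any of the 7 comparisons.

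**Figure D5:**
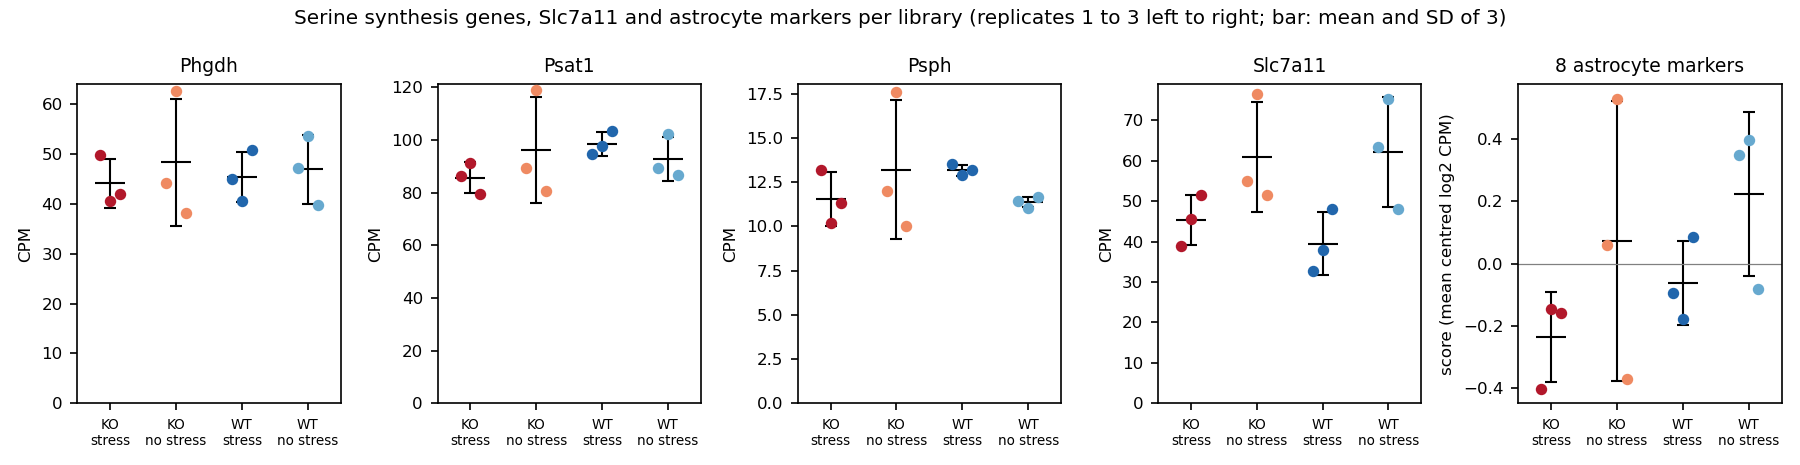
CPM of Phgdh, Psat1, Psph and Slc7a11, and the mean centred log2 CPM of 8 astrocyte markers, for each library as a point in group order, stressed KO, unstressed KO, stressed WT and unstressed WT, with bars for the mean and SD of 3. Unstressed KO library 2, the middle point of its group, is the highest point of each of the 5 panels, at a score of 0.53 in the last.

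Genes of the same pathway outside the 34 were counted from 4 lists, of which 74 genes were tested. The lists were chosen with earlier results of these data known, so their shares are descriptions and no independent support. With genotype averaged, 12 of the 74 were lower and 1 was higher in KO libraries, so that 17.6% passed, against 6.33% of all genes (3.22% lower and 3.11% higher). Of 29 other Atf4-linked genes, 7 were lower and 0 higher: Slc38a2, Jdp2, Herpud1, Slc6a9, Aldh1l2, Gpt2 and Slc38a1. Of 14 other cytosolic synthetases and their partner proteins, Cars, Vars, Yars and Mars were lower and Hars was higher. Of 14 other genes for eIF2, its kinases and its exchange factor, Ppp1r15b was lower at -0.16 ± 0.04 (edgeR adjusted p = 0.0436); it encodes the constitutive counterpart of Ppp1r15a. None of 17 mitochondrial synthetases passed (edgeR; 5 at an unadjusted p under 0.05). Of the 74, 4 passed without unstressed WT libraries 1 and 2, Cars, Slc38a2, Slc6a9 and Jdp2, each lower in KO libraries. The number that passed was 2 with olfactory bulb score as covariate and between 5 and 18 when 1 library was left out, at 5 to 7 without any 1 library other than unstressed KO library 3 or unstressed WT library 3.

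Slc38a2, the neutral amino acid transporter SNAT2, averaged 92.6 ± 5.07 and 103 ± 7.37 CPM in stressed and unstressed KO, against 112 ± 4.88 and 171 ± 19.9 CPM in stressed and unstressed WT. Its averaged log2 fold change was -0.50 ± 0.06 (edgeR adjusted p = 0.00270). Jdp2, a repressor that binds the same kind of site, averaged 25.8 ± 1.49 and 25.6 ± 1.95 CPM in stressed and unstressed KO, against 38.0 ± 3.65 and 33.7 ± 3.79 CPM in stressed and unstressed WT, a log2 fold change of -0.48 ± 0.07 (edgeR adjusted p = 0.00692). Jdp2 gave -0.56 ± 0.10 with stress (edgeR adjusted p = 0.0503) and -0.40 ± 0.10 without (edgeR adjusted p = 0.0205), and Slc38a2 had its highest levels in unstressed WT. Slc6a9, the glycine transporter GlyT1, was read at 92.8, 99.3 and 45.0 CPM in unstressed WT and between 27.7 and 43.5 CPM in the other 9 libraries, so that the 2 highest were unstressed WT libraries 1 and 2.

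Cars, which charges tRNA with cysteine, was the 1 gene of these lists that passed in stressed mice. It was read at 32.3, 32.4 and 33.0 CPM in stressed KO and 29.6, 27.5 and 31.6 CPM in unstressed KO, against 47.6, 45.4 and 44.4 CPM in stressed WT and 43.0, 43.4 and 46.7 CPM in unstressed WT. KO libraries were well below WT libraries at both stress levels, with log2 fold changes of -0.49 ± 0.07 with stress (edgeR adjusted p = 0.00920) and -0.59 ± 0.07 without (edgeR adjusted p = 0.00217). Without stressed KO library 1, stressed KO library 2 or stressed WT library 1 no gene of these lists passed with stress. Cars lies at chromosome 7, 143557230 to 143600090 on GRCm38. Mars, the methionine synthetase, was read at 50.9, 52.1 and 48.9 CPM in stressed KO and 51.2, 48.6 and 54.2 CPM in unstressed KO, against 57.4, 59.3 and 55.9 CPM in stressed WT and 56.8, 57.0 and 58.7 CPM in unstressed WT. The 6 KO libraries lay below the 6 WT libraries, with an averaged log2 fold change of -0.17 ± 0.04 (edgeR adjusted p = 0.0400). Hars, for histidine, went the other way, with 115 ± 2.54 and 112 ± 9.71 CPM in stressed and unstressed KO, against 104 ± 4.23 and 81.2 ± 5.45 CPM in stressed and unstressed WT, an averaged log2 fold change of 0.31 ± 0.05 (edgeR adjusted p = 0.0129).

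In unstressed mice, 11 of the 74 were higher and 13 lower in KO libraries, 32.4% in all, against 23.2% of all genes (11.2% higher and 12.1% lower), in a comparison where many genes of any kind passed. The higher ones included Eif2s1 and Eif2s2, the alpha and beta subunits of eIF2, and the synthetase scaffold proteins Aimp1 and Aimp2, at log2 fold changes of 0.38, 0.40, 0.32 and 0.35. The lower ones were mostly among the Atf4-linked genes, 9 of 29, with Slc1a5, a neutral amino acid exchanger, at -2.16 and Bbc3, a cell death gene, at -0.68. Without unstressed WT libraries 1 and 2, Cars alone of the 74 passed in unstressed mice; the number was 4 without unstressed WT library 2 and 11 without unstressed KO library 2. Of all genes, 1.53% passed without unstressed WT library 2 and 6.4% without unstressed KO library 2. With stress in WT, 10 of the 74 were higher and 7 lower, 23.0% in all. That is near the 21.9% of all genes (9.71% higher and 12.1% lower) and is no result about these lists. The number that passed was 0 without unstressed WT library 2, without both unstressed WT libraries 1 and 2 or without stressed WT library 2, 11 without stressed WT library 1 and 10 without stressed WT library 3. Of all genes, 13% passed without stressed WT library 1 and 10.8% without stressed WT library 3. No gene of the 4 lists passed for stress in KO, the interaction or stress averaged (edgeR). At an unadjusted p under 0.05 were 7, 20 and 15 of the 74. In the same order, 1372, 4294 and 3526 of all 15199 genes had an edgeR unadjusted p of at most 0.0491, 0.0491 and 0.0476. DESeq2 called 0, 12 and 8 of the 74, and 0.303%, 12.4% and 7.9% of all genes. Leaving out unstressed WT library 3 gave 15 of the 74 for the interaction (25% of all genes) and 9 for stress averaged (19.5%).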

How the data were processed

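RNA from medial prefrontal cortex was made into strand-keeping libraries, per the labels' protocols. The deposited table holds raw estimated counts for each gene symbol and library. The genome build was mm10 and the tools named were RSEM 1.3.1, STAR 2.7.9a, DESeq2 1.36.0 and Trim Galore 0.6.6, per the submitters' processing notes. Annotation and use of strand were not given in these sources. None of the 34 genes had a count with decimals, a sign of reads split between genes.

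Counts were rounded. edgeR 4.0.16 (R 4.3.3) removed low genes with filterByExpr (minimum count 10, minimum total 15), scaled with TMM and fitted all 12 libraries as 4 group means with 8 residual degrees of freedom. The 7 comparisons were contrasts of that quasi-likelihood fit, two-sided, with Benjamini-Hochberg adjustment over 15199 genes. CPM uses the TMM library size, and errors beside log2 values are standard errors of the fit. A count of 3, the limit that a count of 0 allows, is 0.0920 to 0.192 CPM, for counting error only. Marker scores are means of log2 CPM (prior count 2) centred over libraries. A test of 3 against 3 by permutation cannot go below 0.1, so none is given. The fit was tested on simulated data first.

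The genes and lists were chosen with earlier results of these data known. Named are Atf4, Ddit3, Asns, the genes that passed, the 4 with the smallest p per comparison, and pathway genes that passed or led; other genes appear by their values, and single pathway genes as examples. Alternatives were DESeq2 1.42.0, its size factors, no filter, the compared groups alone, the replicate number as a block, each library left out, unstressed WT libraries 1 and 2 left out, and an olfactory bulb covariate. Gene positions are from GENCODE M21 on GRCm38, and promoter stretches from RefSeq on GRCm38.p6.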

Additional observations from a re-analysis of the deposited data

How the results depend on the processing

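The number of the 34 genes that passed was 5 for stress in WT, 9 for KO against WT without stress, 1 with stress and 10 for genotype averaged. Without unstressed WT libraries 1 and 2 the numbers were 0, 0, 1 and 1, with olfactory bulb score as covariate 0, 0, 2 and 1, and with the compared groups alone in the fit 0, 0 and 0 for the first 3. DESeq2 called 10 for stress in WT (26.5% of all genes) and 4 for KO against WT with stress (1.97%). It called 4 for stress averaged (7.9%), where edgeR called 0. With 1 library left out the numbers ran from 0 to 14 for stress in WT (0% to 36.6% of all genes). For KO against WT they were 3 to 11 without stress (1.53% to 37.3%) and 0 to 2 with stress (0.123% to 0.754%). For genotype averaged they were 6 to 12. They were 0 to 5 for the interaction (0% to 25%) and 0 to 6 for stress averaged (0.0129% to 19.5%). With the replicate number as a block they were 4, 8, 0 and 8; the numbers do not pair the libraries, since 4 of 18 same-numbered pairs had a correlation of deviations over 0.1 (range -0.25 to 0.36) and 5 of 12 libraries correlated best with their own number. DESeq2's size factors and no filter on low counts kept each number within 1.5 times. Stress in KO gave 0 in each setting.

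Values that changed sign were small and did not pass. Ddit3 for stress in WT was 0.12 without unstressed WT libraries 1 and 2, 0.10 with the covariate and -0.18 to 0.081 with 1 library left out. For stress averaged it was 0.10 in both of those settings, 0.0027 with no filter, 0.0025 with the block and -0.045 to 0.087 with 1 library left out, and for the interaction it was -0.036 without those libraries. Asns for KO against WT without stress was -0.22 without those libraries, -0.15 with the covariate and -0.047 to 0.21 with 1 library left out, and Ddit3 was -0.026 to 0.24. For stress in KO, leaving out 1 library gave -0.032 to 0.085 for Asns, -0.010 to 0.13 for Atf4 and -0.0028 to 0.18 for Ddit3. The cause of these changes was not tested. The 3 libraries a group limit what can be called, and Trib3 was too low for a comparison at this depth.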
